A study of Homo sapiens with 2 samples.

Results

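The genes described here, SLC26A4, FOXI1, ATP6V1B1, ATP6V0D2, CA2, KCNQ1, KCNE1, SLC12A2, BSND and ATP13A5, are 10 genes chosen by symbol around the ions of endolymph, the potassium-rich fluid of the inner ear, out of 36601 genes listed for each of 2 libraries of human inner ear organoids. All 10 symbols were found. The question was which otic cells combine genes of acid-base, potassium and chloride transport. In the ear, marginal cells of the cochlea and dark cells of the vestibule take up potassium with sodium and chloride through the cotransporter SLC12A2, release potassium through the channel of KCNQ1 and KCNE1, and recycle chloride through channels that need barttin, the product of BSND. Epithelial cells of the endolymphatic sac, best known from the mouse, move bicarbonate and protons with pendrin (SLC26A4), carbonic anhydrase and a proton pump that contains ATP6V1B1, under the transcription factor FOXI1.

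The organoids were collected at day 40 from the human embryonic stem cell line WA25 with a nuclear tdTomato reporter at SOX2, and both libraries held only cells sorted for that reporter. One library came from organoids in GelNB-CH, a gelatin hydrogel crosslinked by light, and the other from organoids in Matrigel, a basement membrane extract. The growth text attached to both describes only the GelNB-CH embedding, so the Matrigel culture is known by its label alone. With 1 library per gel no test between gels was possible, gel and library cannot be told apart, and all intervals are exact 95% intervals for counting error only.

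After removal of low-quality barcodes and called doublets, 18253 GelNB-CH and 9800 Matrigel cells were kept. Cells with at least 5 molecules (UMIs, unique molecular identifiers) of OC90, which encodes a protein of the otoconial matrix, were called otic: 6347 cells (34.8%) with GelNB-CH and 2302 (23.5%) with Matrigel, set against 11906 and 7498 other cells. Of these otic cells, 5752 and 2052 lay in clusters named from otic epithelium markers. The threshold cuts through a range, with 162 and 75 cells at 5 or 6 OC90 UMIs and 238 and 112 cells at 3 or 4. Median depth was 10259 and 16751 UMIs per otic cell, and 7958.5 and 13418.5 UMIs per other cell, GelNB-CH before Matrigel. The libraries shared 78 barcodes, 5 of them otic cells.

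The promoters of SLC26A4, ATP6V1B1 and ATP13A5 are shown because FOXI1 is needed for the first 2 of these genes in the mouse endolymphatic sac, and because SLC26A4 and ATP13A5 differed most between the gels. Each runs from 250 bases before to 50 bases after a RefSeq start on GRCh38.p14, 5′ to 3′ on the gene's strand, with the forkhead core TGTTTA, or TAAACA where it lies on the other strand, in capitals.
SLC26A4, chr7:107660578-107660877, plus strand: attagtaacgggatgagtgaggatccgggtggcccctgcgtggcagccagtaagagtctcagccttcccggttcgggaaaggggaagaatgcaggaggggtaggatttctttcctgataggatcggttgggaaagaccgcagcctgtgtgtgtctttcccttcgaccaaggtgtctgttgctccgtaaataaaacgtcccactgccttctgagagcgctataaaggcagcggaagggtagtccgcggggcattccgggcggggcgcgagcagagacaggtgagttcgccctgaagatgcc
ATP6V1B1, chr2:70935650-70935949, plus strand: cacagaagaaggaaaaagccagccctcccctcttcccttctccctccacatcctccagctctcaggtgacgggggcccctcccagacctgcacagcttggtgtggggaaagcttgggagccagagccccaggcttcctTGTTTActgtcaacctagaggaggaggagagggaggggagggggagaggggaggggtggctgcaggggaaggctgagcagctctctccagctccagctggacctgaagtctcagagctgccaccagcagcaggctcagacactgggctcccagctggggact
ATP13A5, chr3:193378704-193379003, minus strand: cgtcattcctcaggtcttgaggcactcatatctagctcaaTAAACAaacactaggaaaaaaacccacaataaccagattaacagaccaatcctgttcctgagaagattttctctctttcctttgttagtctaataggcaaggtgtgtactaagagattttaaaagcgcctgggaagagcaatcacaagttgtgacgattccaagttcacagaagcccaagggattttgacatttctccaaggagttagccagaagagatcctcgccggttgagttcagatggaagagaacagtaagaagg
The promoter table has 7 of the members, and 3 of them held the motif, 112 bases before the start in ATP6V1B1, 210 in ATP13A5 and 29 in SLC12A2. By promoter, 3 of the 10 examined for these members held it on either strand, against 12.3% of all 35116 listed. At least 1 promoter with it was found for 14.7% of all genes. No chromosome was left out of these shares for all promoters and genes, so the bases differ. A match is a description of letters and not a binding site.

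By GENCODE v29 gene bounds on GRCh38, SLC26A4 lies at chr7:107660635-107717809, FOXI1 at chr5:170105897-170109725, ATP6V1B1 at chr2:70935868-70965431 and SLC12A2 at chr5:128083766-128189688, all on the plus strand. CA2 at chr8:85463852-85481493 and ATP6V0D2 at chr8:85987323-86154228 share a strand with 506 kb between them. KCNQ1 lies at chr11:2444684-2849110 and BSND at chr1:54998193-55011784 on the plus strand, and KCNE1 at chr21:34446688-34512275 and ATP13A5 at chr3:193274790-193378843 on the minus strand. SLC26A4, ATP6V1B1, ATP6V0D2, CA2, KCNQ1 and ATP13A5 each overlap an annotated antisense gene, and ATP6V1B1 also overlaps the protein-coding gene VAX2 on its own strand over 29506 bases. The longest antisense overlap is 91667 bases of KCNQ1OT1 in KCNQ1. The sources do not say how strand entered the counting, so those members' counts are uncertain in that respect. KCNE1 has a near-identical copy, KCNE1B, and reads may be split between the pair.

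Levels are CPM, the UMIs of a gene summed over a group of cells and scaled to a common total per group. A gene was called higher or lower where the ratio of CPM was at least 2 and the larger CPM at least 5. By that rule 9.75% of 13067 genes over the minimum were higher in GelNB-CH otic cells than in the other cells and 9.37% were lower. For Matrigel 8.61% of 13340 were higher and 9.87% lower (19.1% and 18.5% in either direction). Of the 10 members, 4 were higher in GelNB-CH otic cells, namely CA2, ATP6V0D2, SLC26A4 and ATP13A5. In Matrigel 2 were higher, CA2 and ATP6V0D2. None was lower in either library, and 4 and 6 members stayed under the minimum. The median log2 ratio was 2.59 for the 6 members over the minimum in GelNB-CH and 2.31 for the 4 in Matrigel. For all genes it was 0.09 in both. The members called higher passed the minimum only through the otic cells, so their median is a description and no support for a difference.

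CA2, the cytosolic carbonic anhydrase that makes bicarbonate and protons from carbon dioxide, was higher in otic cells. In GelNB-CH it had 73.2 CPM (5736 UMIs in 1955 cells), against 4.09 CPM in the other cells, a ratio of 17.9 (16.2 to 19.8). In Matrigel it had 103 CPM (4807 UMIs in 980 cells), against 4.81 CPM in the other cells, a ratio of 21.4 (19.6 to 23.5). With every cell thinned to 5000 UMIs, which left out 373 and 68 shallower otic cells, a CA2 UMI was found in 19.2% of GelNB-CH otic cells and 24.0% of Matrigel ones. The background from free RNA was not measured. Mesenchyme-like cells were taken in its place, and 0.889% and 0.450% of them held one, at median depths of 7478 and 12530.5 UMIs before thinning. Cells of the otic-named clusters under the OC90 threshold had 17.1 and 14.6 CPM, and among the other named cell types Schwann or satellite glia-like cells were highest, with 12.7 and 9.10 CPM. With otic cells taken as the clusters named otic, whatever their OC90, which moves the CA2-rich cluster 11 to the other cells, the CA2 ratio was 2.17 and 2.82, and without cluster 11 it was 12.6 and 14.2.

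ATP6V0D2 encodes a d subunit of the vacuolar proton pump used in osteoclasts, kidney and other specialised cells. GelNB-CH otic cells had 10.7 CPM (836 UMIs in 304 cells), against 0.555 CPM in the other cells, a ratio of 19.2 (14.7 to 25.5). Matrigel otic cells had 22.4 CPM (1045 UMIs in 189 cells), against 0.354 CPM in the other cells, a ratio of 63.3 (46.0 to 89.5). Thinned shares were 2.49% and 4.16% of otic cells, against 0.0261% and 0.135% of mesenchyme-like cells. The gene was thus rare in otic cells and rarer outside them. Without cluster 11, a keratin-rich cluster described below, the ratio was 10.1 in GelNB-CH and 17.5 in Matrigel, and among cells of 8000 to 16000 UMIs it was 16 in Matrigel. When otic cells were taken as the clusters named otic, whatever their OC90, cluster 11 counted among the other cells and the ratio was 1.23 and 0.814.

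SLC26A4 encodes pendrin, which exchanges chloride for bicarbonate and whose loss in people causes deafness with an enlarged vestibular aqueduct. GelNB-CH otic cells had 14.6 CPM (1144 UMIs in 771 cells), against 2.25 CPM in the other cells, a ratio of 6.49 (5.64 to 7.49). Matrigel otic cells had 3.60 CPM (168 UMIs in 124 cells), against 1.03 CPM in the other cells, a ratio of 3.48 (2.73 to 4.45) that lay under the 5 CPM minimum. Thinned shares were 6.08% and 1.66% of otic cells, against 1.12% and 0.360% of mesenchyme-like cells. Mesenchyme-like clusters of GelNB-CH differed in SLC26A4, with 4.81 CPM in cluster 2 and 0.255 CPM in cluster 1. How much of the mesenchyme-like share came from free RNA was not tested. Neuron-like cells, with median depths of 7235 and 14089 UMIs, had thinned shares of 0% and 0.128%.

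FOXI1 and ATP6V1B1 were at or near 0. FOXI1, the forkhead factor of ionocytes, had no UMI in any of 6347 otic cells with GelNB-CH or 2302 with Matrigel, which at the limit of 3 counts allows up to 0.0473% and 0.130% of cells with a UMI. Its only UMIs, 5 of them, lay in 4 other GelNB-CH cells of an unnamed cluster and of the central nervous system progenitor-like cluster. ATP6V1B1, the B1 pump subunit of ionocytes and kidney intercalated cells, had 0 UMIs in GelNB-CH otic cells and 1 in the other cells, and in Matrigel 1 in otic cells and 1 in the other cells. Reads in its overlap with VAX2 may not be given to either gene, so this count near 0 does not show that the gene is off. The Matrigel otic cell with ATP6V1B1 lay in cluster 11 and also held CA2, ATP6V0D2 and SLC12A2. No comparison of otic cells with and without FOXI1 could be made.

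The potassium channel pair was low and not set apart in otic cells. With GelNB-CH KCNQ1, the pore subunit, had 8.35 CPM (654 UMIs in 571 cells), against 6.23 CPM in the other cells, a ratio of 1.34 (1.20 to 1.49). With Matrigel it had 10.3 CPM (483 UMIs in 391 cells), against 7.08 CPM in the other cells, a ratio of 1.46 (1.30 to 1.64). Cartilage-like cells had 11.1 and 12.9 CPM, and thinned shares of 4.08% and 5.06% in otic cells stood against 3.24% and 4.55% in mesenchyme-like cells. With GelNB-CH KCNE1, the partner subunit, had 0.255 CPM (20 UMIs in 17 cells), against 0.339 CPM in the other cells, a ratio of 0.753 (0.413 to 1.34). With Matrigel it had 0.728 CPM (34 UMIs in 30 cells), against 0.354 CPM in the other cells, a ratio of 2.06 (1.26 to 3.35). Both ratios lay under the 5 CPM minimum, and KCNE1B added 5 and 4 otic UMIs.

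SLC12A2, the sodium, potassium and chloride cotransporter NKCC1, was counted in every lineage with over 100 cells in both libraries. GelNB-CH otic cells had 72.8 CPM (5708 UMIs in 2755 cells), against 49.9 CPM in the other cells, a ratio of 1.46 (1.41 to 1.52). Matrigel otic cells had 79.6 CPM (3718 UMIs in 1286 cells), against 55.5 CPM in the other cells, a ratio of 1.43 (1.38 to 1.49). Neither reached 2-fold. Keratin epithelium-like cells were highest with 163 and 126 CPM and cartilage-like cells lowest of those lineages with 20.8 and 18.1 CPM. BSND, the barttin subunit of the ClC-K chloride channels, had 7 UMIs in 7 GelNB-CH otic cells and 0 in the other cells, and in Matrigel 2 UMIs in 1 otic cell and 2 in the other cells. The 7 cells were spread over clusters 3, 7, 9 and 11.

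ATP13A5 encodes a P5-type ATPase, and no role in endolymph is assumed for it here. GelNB-CH otic cells had 27.0 CPM (2114 UMIs in 1017 cells), against 0.518 CPM in the other cells, a ratio of 52.1 (39.9 to 69.4). Matrigel otic cells had 2.01 CPM (94 UMIs in 55 cells), against 0.599 CPM in the other cells, a ratio of 3.36 (2.43 to 4.68) under the 5 CPM minimum. Thinned shares were 9.56% and 0.761% of otic cells, against 0.052% and 0% of mesenchyme-like cells. With an OC90 threshold of 20 UMIs the GelNB-CH ratio was 24.4. Outside the otic cells its highest level in any group was 2.44 CPM, in GelNB-CH cells of the otic-named clusters under the OC90 threshold.

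**Figure D1:**
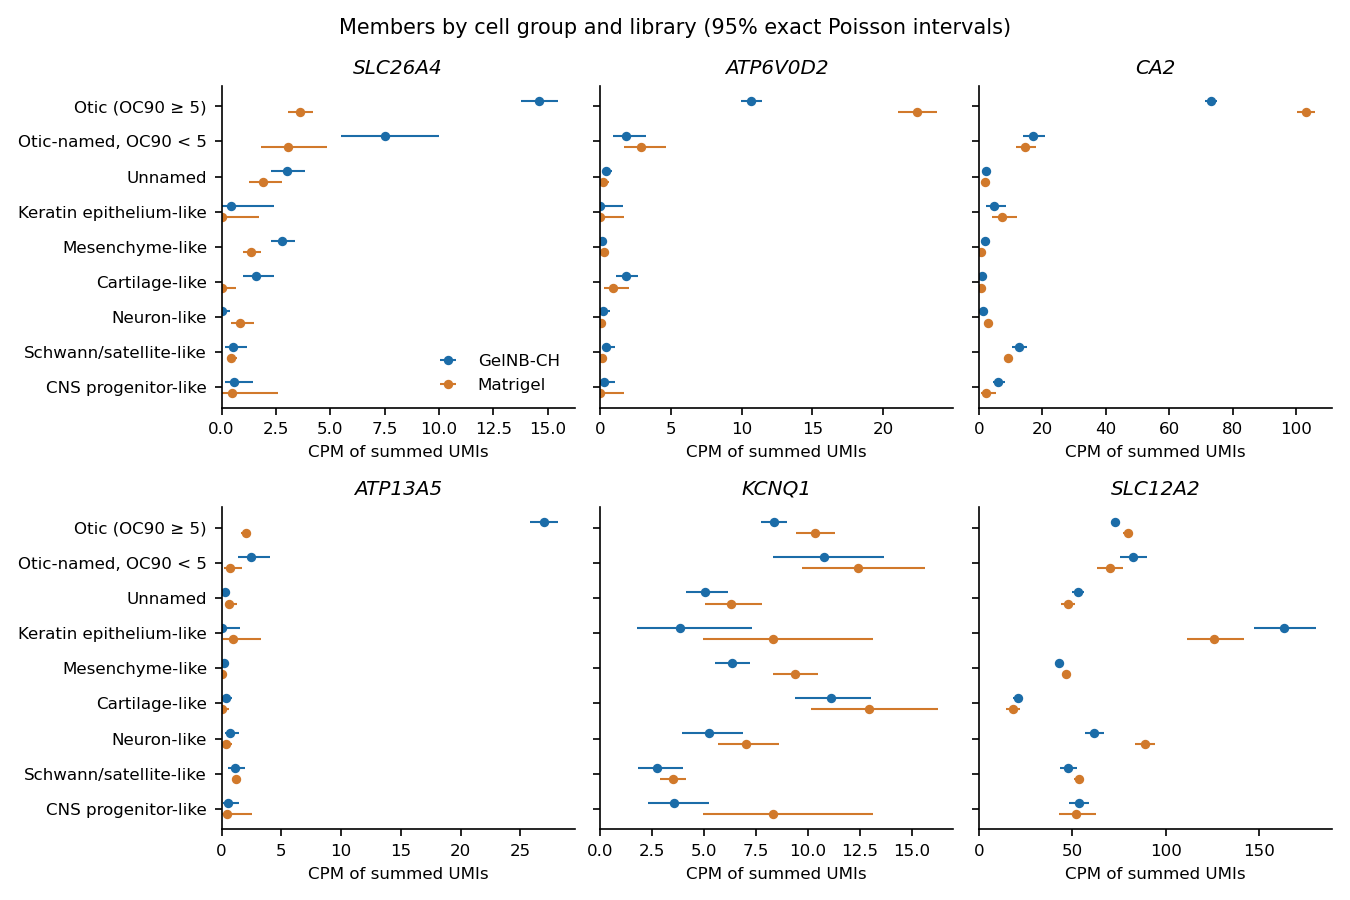
Level of 6 members in each group of cells, in CPM of summed UMIs on the horizontal axis, with GelNB-CH in blue above Matrigel in orange and bars for exact 95% Poisson intervals. CA2 stands apart in otic cells at 73.2 and 103 CPM, whereas KCNQ1 and SLC12A2 are spread over the lineages.

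**Figure D2:**
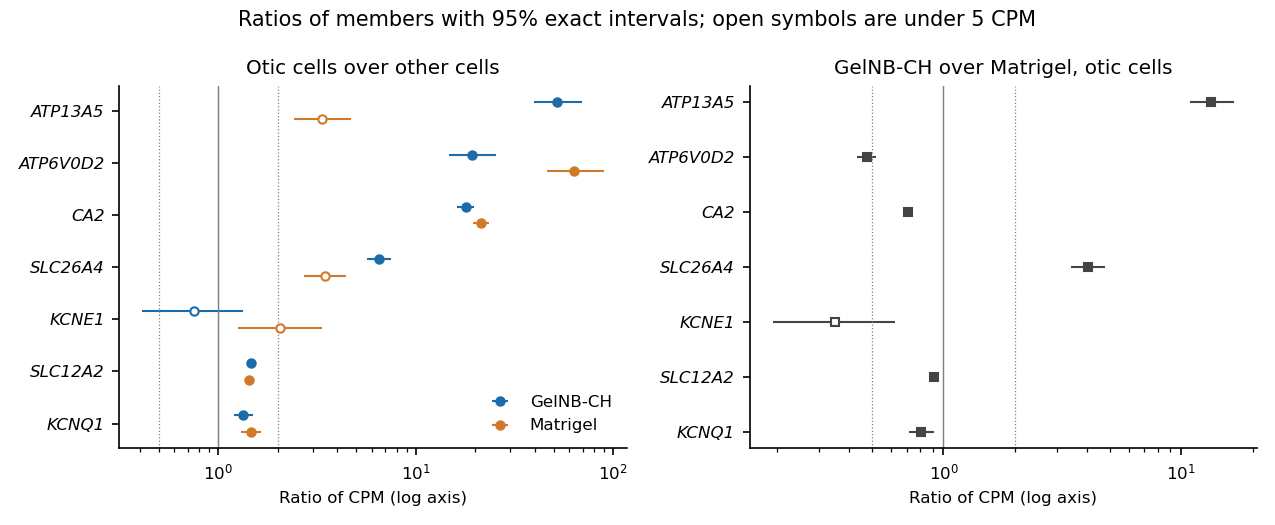
Ratio of CPM on a log axis with exact 95% intervals, for otic over other cells in each library on the left and for GelNB-CH over Matrigel otic cells on the right. Open symbols lie under 5 CPM, dotted lines mark 2-fold, and ATP13A5 has the largest ratio on the right at 13.4.

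The otic cells lay mainly in 7 clusters that carried different members. CA2 and ATP6V0D2 were among the 2000 variable genes used for clustering and the other members were not, so all levels by cluster are a description and no test. Cluster 11, with KRT19, KRT17, CLDN4, DCC and CA2 among its leading genes, held 400 GelNB-CH and 192 Matrigel otic cells, 6.30% and 8.34% of all. Its CA2 was 309.9 and 366 CPM, against 51.5 and 68.2 CPM in the other otic cells. Its ATP6V0D2 was 66.0 and 145 CPM, against 5.59 and 6.18 CPM. Cluster 11 held 52.0% and 75.6% of the ATP6V0D2 UMIs of otic cells.

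In cluster 11 the members CA2 and ATP6V0D2 were higher in both libraries, and SLC26A4 and ATP13A5 were lower in GelNB-CH. None was lower by the rule in Matrigel, where SLC26A4 and ATP13A5 lay under the 5 CPM minimum and could not be called. Over all genes 5.4% were higher and 7.2% lower in GelNB-CH (12.6% either way), and 6.5% higher and 7.46% lower in Matrigel (14% either way). SLC26A4 was 2.12 and 1.84 CPM there, against 15.7 and 3.83 CPM in the other otic cells. ATP13A5 was 3.95 and 0.919 CPM, against 29.1 and 2.16 CPM. SLC12A2 was 104 and 132 CPM, against 70.0 and 72.7 CPM, which is under 2-fold. KCNE1 had 6 of its 20 GelNB-CH and 12 of its 34 Matrigel otic UMIs in cluster 11.

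Keratin genes moved with cluster 11, which was left unnamed: 6 of 10 markers of keratin epithelium and 9 of 19 of otic epithelium were met. The keratin list summed to 2292 and 2229 CPM, against 455 and 397 CPM in the other otic cells. The otic list summed to 6398 and 5341 CPM, against 6441 and 5603 CPM. In keratin epithelium-like cells the keratin list summed to 4629 and 1979 CPM, above cluster 11 in GelNB-CH and below it in Matrigel. Of the keratin list KRT4 was at 0 in GelNB-CH cluster 11 and KRT5 in Matrigel cluster 11, and TP63 was at 0.152 and 0.368 CPM. Keratin epithelium-like cells had 4.72 and 7.39 CPM of CA2 and no ATP6V0D2 UMI. The list of pericyte markers also moved, summing to 454 and 277 CPM in cluster 11, against 80.7 and 84.0 CPM in the other otic cells, with KCNJ8 at 0 in cluster 11 of both libraries. Cluster 11 cells were deeper than other otic cells, with medians of 14390 and 23670 UMIs. The part of keratin genes, pericyte markers and depth in the member levels was not tested.

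Cluster 7, with LRP2 and ROCR among its leading genes, held most of the SLC26A4 and ATP13A5 of GelNB-CH. It had 2382 GelNB-CH and 305 Matrigel otic cells. SLC26A4 was 29.3 and 11.8 CPM, against 6.61 and 2.54 CPM in the other otic cells, and the cluster held 70.6% and 37.5% of its otic UMIs. ATP13A5 was 60.4 and 9.01 CPM, against 8.85 and 1.11 CPM, with 78.7% and 51.1% of the UMIs. CA2 was 29.8 and 28.5 CPM, against 96.7 and 113 CPM. In both libraries SLC26A4 and ATP13A5 were thus higher and CA2 and ATP6V0D2 lower in cluster 7. Over all genes 1.46% were higher and 4.64% lower in GelNB-CH (6.11% either way), and 2.25% higher and 4.59% lower in Matrigel (6.84% either way).

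When the cells were clustered without the members, which was added after the data were seen, a cluster with 96.5% and 97.4% of the cluster 11 otic cells was found again, with CA2 at 309 and 360.2 CPM and ATP6V0D2 at 63.8 and 136 CPM. Genes near the members, such as AC100801.1 by ATP6V0D2 and CA3-AS1 by CA2, were not taken out. This clustering may thus not be independent of the members. Cluster 7 was divided, and the best match held 54.4% and 51.1% of its otic cells. In that match SLC26A4 was at 38.8 and 14.9 CPM, with 47.9% and 25% of its otic UMIs. ATP13A5 was at 64.0 and 4.95 CPM, with 42.8% and 14.9% of its otic UMIs, and its Matrigel level there lay under the 5 CPM minimum.

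The other otic clusters had mixtures of these members. Cluster 9, with LMX1A and NPY among its leading genes, had CA2 at 98.8 and 103 CPM and ATP6V0D2 at 13.2 and 8.18 CPM in 1760 and 951 cells. Cluster 10, with ITGA8 and OTOL1, had the highest SLC12A2 of the otic clusters at 117 and 153 CPM and no ATP13A5 UMI in 213 and 90 cells. Cluster 3, with CALB1 and XKR4, had the highest KCNQ1 at 14.0 and 16.1 CPM, next to 9.73 and 13.5 CPM in cluster 7. The cycling cluster 12 had SLC26A4 at 13.1 and 3.64 CPM and CA2 at 38.9 and 60.9 CPM, and cluster 8, with KRT19 and GDF15, had CA2 at 90.6 and 54.3 CPM.

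**Figure D3:**
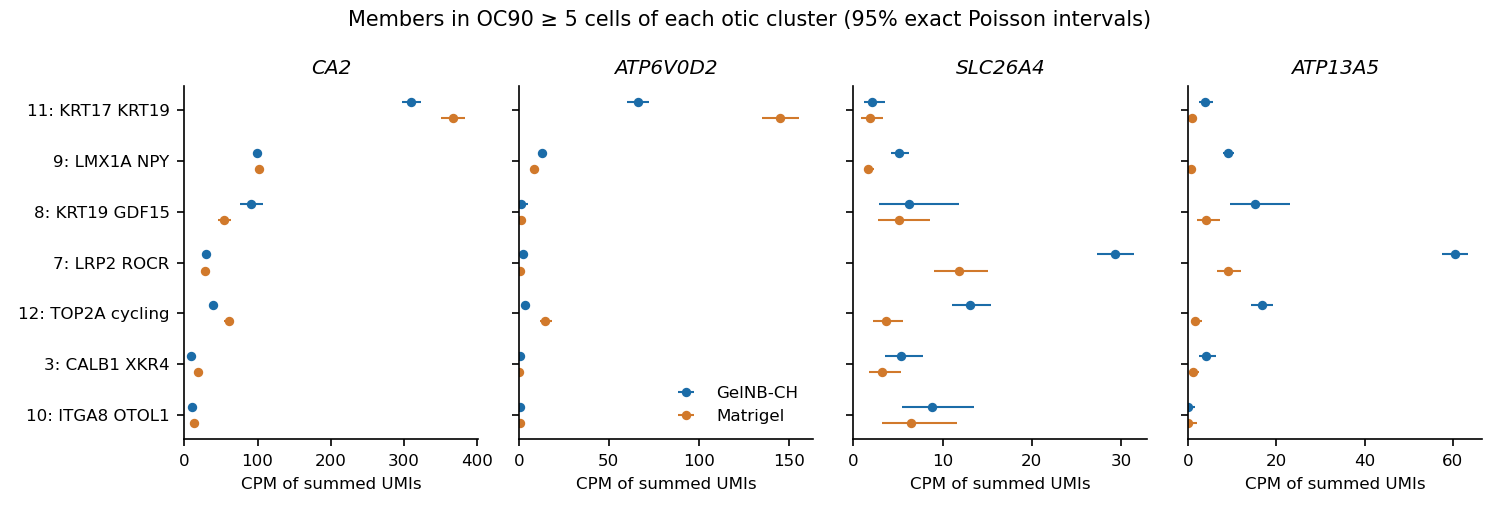
Level of CA2, ATP6V0D2, SLC26A4 and ATP13A5 in the otic cells of each cluster, in CPM of summed UMIs, with GelNB-CH in blue above Matrigel in orange and bars for exact 95% Poisson intervals. CA2 and ATP6V0D2 are highest in cluster 11, and SLC26A4 and ATP13A5 in cluster 7.

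Within single otic cells, thinned to 5000 UMIs, CA2 was more frequent in cells with ATP6V0D2 than in cells without it. CA2 was found in 65.8% (57.6% to 73.3%) of the 149 GelNB-CH cells with ATP6V0D2, against 18.0% of those without it. With Matrigel it was found in 64.5% (53.9% to 74.2%) of 93 cells, against 22.3%. The share with ATP6V0D2 went up with the CA2 count, from 1.06% of GelNB-CH cells with no CA2 UMI through 4.86% at 1 and 12.3% at 2 or 3 to 22.1% at 4 or more. The same steps in Matrigel were 1.94%, 8.36%, 12% and 23.3%. Inside cluster 11 CA2 was found in 80.9% (69.5% to 89.4%) against 64.5% (59.1% to 69.7%) of GelNB-CH cells with and without ATP6V0D2. The Matrigel shares there were 76.3% (63.4% to 86.4%) against 71.2% (62.7% to 78.8%). Inside cluster 9 of GelNB-CH they were 55.4% (41.5% to 68.7%) against 27.9% (25.8% to 30.2%). Inside cluster 9 of Matrigel they were 44.4% (25.5% to 64.7%) against 28.2% (25.3% to 31.3%), on 12 of 27 cells with ATP6V0D2. Inside cluster 7 of GelNB-CH they were 47.4% (24.4% to 71.1%) against 10.4% (9.15% to 11.7%), on 9 of 19 cells with ATP6V0D2. The intervals overlapped in cluster 11 of both libraries and in cluster 9 of Matrigel.

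SLC26A4 was found more often with ATP13A5 and less often with CA2 in the GelNB-CH cells. ATP13A5 was in 17.9% (14.1% to 22.2%) of the 363 GelNB-CH cells with SLC26A4, against 9.02% of those without. Inside cluster 7 the shares were 22.2% (17.3% to 27.7%) against 19.2% (17.5% to 21.0%), with overlapping intervals. Inside cluster 9 ATP13A5 was in 0 of 33 GelNB-CH cells with SLC26A4, against 4.30% of those without. Inside cluster 12 it was in 16.1%, on 5 of 31 cells, against 6.06%. In Matrigel 0 of 37 cells with SLC26A4 held ATP13A5, too few to compare. CA2 was in 8.26% (5.65% to 11.6%) of GelNB-CH cells with SLC26A4, against 19.9% of those without. The Matrigel shares were 13.5% (4.54% to 28.8%) and 24.2%, with an interval that reaches past the second.

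SLC12A2 was found in 27.4% against 24.6% of GelNB-CH cells with and without CA2, and in 31.7% against 23.7% for Matrigel. With and without ATP6V0D2 the shares were 32.9% against 24.9% and 39.8% against 25.0%. With and without SLC26A4 they were 22.3% against 25.3% and 24.3% against 25.7%. None of these pairs had a gap as wide as that of CA2 with ATP6V0D2.

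**Figure D4:**
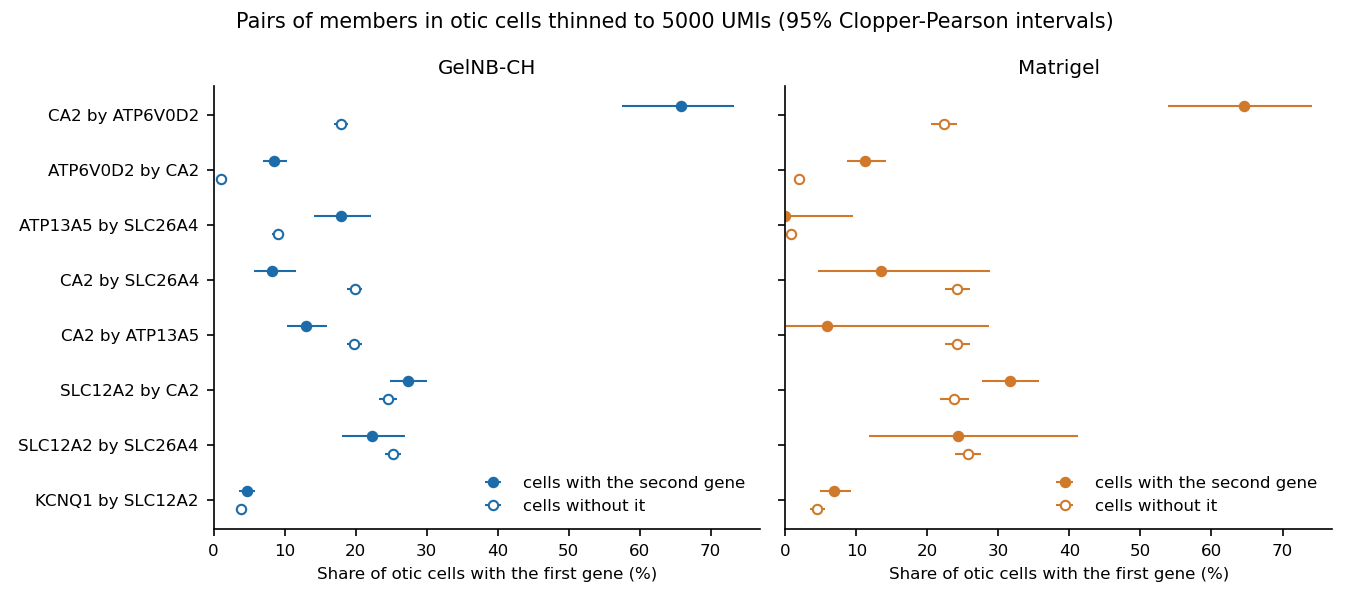
Share of otic cells that held the first gene of each pair, in percent on the horizontal axis, in cells with the second gene (filled) and without it (open), after thinning to 5000 UMIs, with exact 95% binomial intervals. For CA2 by ATP6V0D2 in GelNB-CH the shares are 65.8% against 18.0%.

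No otic cell combined the 3 kinds of transport under the strict rule of at least 1 UMI of FOXI1, SLC26A4, ATP6V1B1 or ATP6V0D2, at least 1 of KCNQ1 or KCNE1, and at least 1 of BSND. It was met by 0 of 6347 GelNB-CH and 0 of 2302 Matrigel otic cells, which allows up to 0.0473% and 0.130%. A broader rule with CA2 as an acid-base gene and SLC12A2 as a potassium gene was also met by 0 and 0 cells. BSND sets this limit, since it was counted in 7 and 1 otic cells. With SLC12A2 as the chloride gene, a rule added after the data were seen, 90 (1.42%) and 68 (2.95%) otic cells met it. Of the 11906 and 7498 other cells 3 and 9 met it. The other cells were shallower, so these full counts are not matched for depth. Thinned to 5000 UMIs the otic counts were 10 and 3.

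CA2, ATP6V0D2 and SLC12A2 were counted together in a small share of otic cells, SLC12A2 being a gene of every lineage. Among otic cells 165 of 6347 with GelNB-CH and 147 of 2302 with Matrigel held all 3, against 2 and 2 other cells. Cluster 11 held 90 and 87 of them, and cluster 9 held 51 and 43. KCNQ1 came with all 3 in 19 and 40 otic cells and in 0 other cells. These counts rise with depth: thinned, the set of 3 was found in 34 of 5974 and 26 of 2234 otic cells. SLC26A4 came with ATP13A5 in 286 GelNB-CH otic cells, 230 of them in cluster 7, and in 7 Matrigel otic cells. It came with both CA2 and ATP6V0D2 in only 13 and 8.

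Between the gels, SLC26A4 and ATP13A5 were higher in the GelNB-CH otic cells. By the rule 1.2% of 12663 genes were higher and 1.17% lower (2.37% either way), and of the members 2 were higher and 1, ATP6V0D2, lower. The median log2 ratio was -0.20 for the 6 members over the minimum and -0.04 for all genes. SLC26A4 and ATP13A5 passed the minimum only through the GelNB-CH cells, so this median is a description. SLC26A4 had 14.6 CPM with GelNB-CH against 3.60 CPM with Matrigel, a ratio of 4.06 (3.45 to 4.80). ATP13A5 had 27.0 CPM against 2.01 CPM, a ratio of 13.4 (10.9 to 16.7). In the other cells the ratios were 2.18 (1.73 to 2.74) and 0.865 (0.593 to 1.26), with levels under 5 CPM.

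The make-up of the otic cells moved with this difference, as cluster 7 was 37.5% of GelNB-CH and 13.2% of Matrigel otic cells. Inside cluster 7 the ratios were 2.48 (1.92 to 3.26) for SLC26A4 and 6.71 (5.03 to 9.13) for ATP13A5. Inside cluster 9 they were 3.08 (2.07 to 4.69) and 12 (7.07 to 21.8), and inside cluster 12 3.61 (2.27 to 6.01) and 9.66 (5.14 to 20.5). Both genes were higher with GelNB-CH inside these 3 clusters. For SLC26A4 the intervals reached below 1 in cluster 3 at 1.66 (0.848 to 3.37), cluster 8 at 1.21 (0.462 to 3.00), cluster 10 at 1.37 (0.630 to 3.14) and cluster 11 at 1.16 (0.477 to 2.91). For ATP13A5 the ratios were 3.83 (1.40 to 13.1) in cluster 3, 3.77 (1.75 to 8.61) in cluster 8 and 4.29 (1.62 to 14.3) in cluster 11, under 5 CPM in clusters 3 and 11. With the clusters given the same make-up in both libraries the ratio was 2.43 for SLC26A4 and 6.92 for ATP13A5. Among otic cells of 8000 to 16000 UMIs SLC26A4 had 14.4 CPM against 4.60 CPM, and ATP13A5 had 25.4 CPM against 1.72 CPM.

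ATP6V0D2 had 10.7 CPM in GelNB-CH otic cells against 22.4 CPM in Matrigel otic cells, a ratio of 0.477 (0.435 to 0.522) that changed with how the cells were taken. It was 0.904 without cluster 11, 0.561 without the 10 and 80 otic cells over 50000 UMIs, and 1.47 among cells of 8000 to 16000 UMIs. In that band cluster 11 made up 201 of 2907 GelNB-CH and 32 of 894 Matrigel otic cells. Inside cluster 11 GelNB-CH was lower in the band, with 50.4 CPM against 96.6 CPM. One Matrigel cell held 57 of the UMIs, and without it the Matrigel level was 21.2 CPM.

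The other members differed by less than 2-fold or were too rare. CA2 had a ratio of 0.711 (0.684 to 0.739), with 1.04 (0.878 to 1.25) inside cluster 7 and 0.964 (0.907 to 1.03) inside cluster 9. Among otic cells of 8000 to 16000 UMIs the direction turned, with 75.3 CPM against 63.1 CPM, a ratio of 1.19, and at 16000 to 32000 UMIs it was 79.0 CPM against 111 CPM. KCNQ1 had 0.807 (0.716 to 0.909) and SLC12A2 0.915 (0.877 to 0.953). KCNE1 had 0.255 CPM with GelNB-CH against 0.728 CPM with Matrigel on 20 and 34 UMIs, which lies under the minimum.

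**Figure D5:**
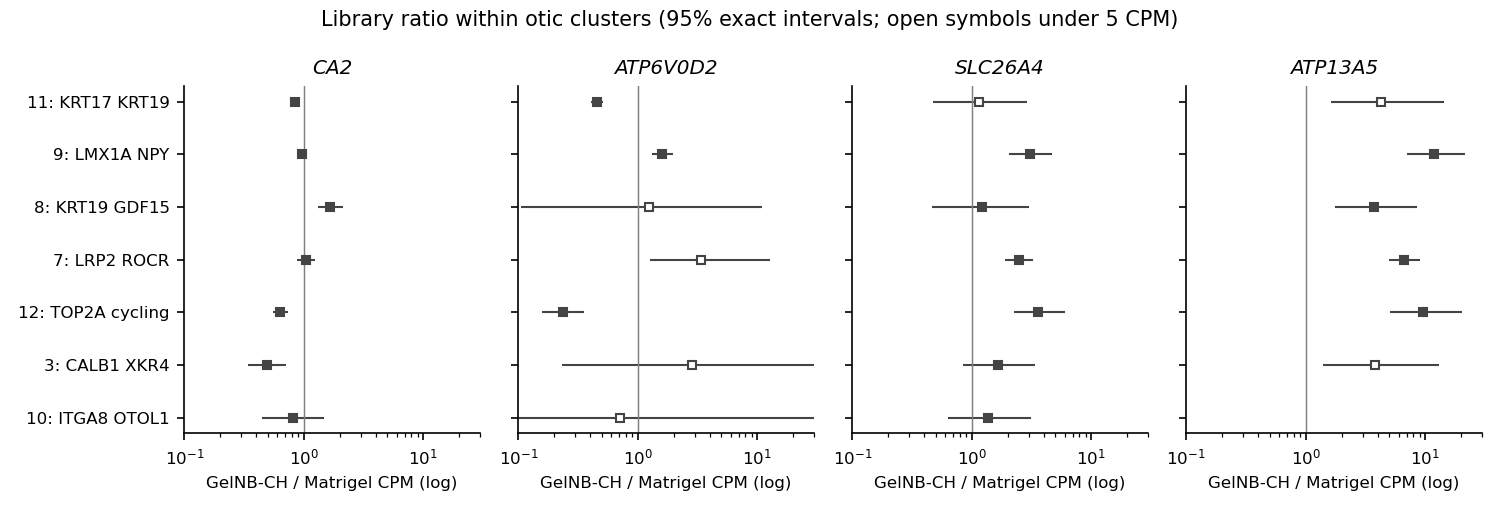
Ratio of GelNB-CH over Matrigel CPM inside each otic cluster on a log axis, with exact 95% intervals, open symbols under 5 CPM, and intervals that reach the frame running past it. SLC26A4 and ATP13A5 lie above 1 in clusters 7, 9 and 12, and ATP6V0D2 lies above 1 in cluster 9 and below it in clusters 11 and 12.

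Lists of related genes were described in the same way. None of 19 proton pump subunits over the minimum, of 23 listed beside the members, was higher or lower in the otic cells of either library. Of 9 carbonic anhydrases over the minimum, of 13 listed, 6 were higher in each library and 1, CA12, was lower in GelNB-CH. CA10, a family member without enzyme activity, had 149.6 CPM against 18.1 CPM in GelNB-CH otic and other cells and 109 CPM against 12.3 CPM in Matrigel ones. Of 22 bicarbonate and anion exchange genes, 10 and 9 were over the minimum and 2 were higher in each, SLC4A7 and SLC4A8, both sodium and bicarbonate transporters. SLC4A7 had 175 CPM against 81.1 CPM and 182 CPM against 87.9 CPM.

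Of 25 potassium channel and pump genes 13 were over the minimum in each library, with 4 higher and 5 lower in GelNB-CH and 3 higher and 4 lower in Matrigel. KCNQ3, a channel subunit related to KCNQ1, had 74.0 CPM against 22.2 CPM in GelNB-CH otic and other cells and 63.6 CPM against 15.9 CPM in Matrigel ones, while KCNQ5 had 23.0 CPM against 121 CPM and 9.49 CPM against 55.1 CPM. Of 14 chloride genes 6 and 7 were over the minimum, and among them CLIC6 was higher in each library, with ratios of 16.2 and 13.7. Of 8 dark and marginal cell genes, 6 of 7 over the minimum were higher in GelNB-CH otic cells, and 5 of 6 were higher and 1, ESRRG, lower in Matrigel ones. LMX1A of that list is also a gene of the early otic epithelium, and LMX1A, HMX2 and HMX3 are among the otic epithelium markers used to name clusters. Another list of 10 dark or marginal cell markers holds the members KCNQ1, KCNE1, SLC12A2 and BSND, and shares ESRRB and LRP2 with the list of 8. Of these markers clusters 3 and 10 each met 3, clusters 7, 11 and 12 each met 2, and clusters 8 and 9 each met 1. Keratin epithelium-like cluster 16 and central nervous system progenitor-like cluster 21 also met 2 each, so the score was not particular to otic clusters. Of 9 FOXI1 relatives and ionocyte genes 1 was over the minimum in each library, neither higher nor lower, and of 4 relatives of ATP13A5 1, ATP13A4, was higher in each. Of 11 sodium and water genes 1, AQP3, was over the minimum and higher in GelNB-CH, and 0 were over it in Matrigel.

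The genes most like each member were taken over 46 groups of cells by Pearson correlation across 14748 genes, a description in which groups share libraries and depth. Nearest to SLC26A4 were GAS1RR (0.799), OTOG (0.787) and AC084816.1 (0.781), and nearest to ATP13A5 CRHBP (0.851), ATP13A4 (0.811) and LINC02432 (0.775). Nearest to ATP6V0D2 were AC100801.1 (0.928), AC007953.2 (0.898) and NOX3 (0.896), with CA2 at 0.816, and nearest to CA2 CA3-AS1 (0.925), PLLP (0.910) and LSR (0.898). Nearest to SLC12A2 were MPP7 (0.764), AC008056.1 (0.759) and TUG1 (0.749), and nearest to KCNQ1 ZRANB2 (0.866), CD46 (0.833) and AUXG01000058.1 (0.831). FOXI1, ATP6V1B1, KCNE1 and BSND were too low for this measure.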

How the data were processed

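The authors deposited raw counts (UMIs per gene and barcode, 10x 3' v3.1 chemistry) for 2 libraries. The file headers name Cell Ranger 7.1.0, whereas the labels' protocols name version 4.0.0. The submitters' processing notes list STAR and GRCh38. The annotation version and the use of strand are not stated in these sources. The libraries held 21743 and 10912 barcodes with 247006223 and 178672097 UMIs, GelNB-CH before Matrigel.

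From these counts, barcodes with at least 1000 genes and at most 15% mitochondrial UMIs were kept, and doublets called by Scrublet at an expected 0.8% per 1000 barcodes were removed (14.2% and 6.55% of barcodes were called). Cells were clustered with scanpy 1.11.5 (2000 variable genes, 30 components, 15 neighbours, Leiden resolution 1) into 24 clusters, named "-like" from marker lists. UMIs were summed per group, with exact Poisson, conditional binomial and Clopper-Pearson 95% intervals, which cover counting error only. The limit given for a count of 0 is 3 counts of the total and is not one of these intervals. No p-value was computed, since each group is 1 library. edgeR 4.0.16 gave TMM factors for 1 alternative. The calculation was tested on counts simulated from Poisson and binomial models, without added spread between cells or libraries. That checks the code and not the spread in these data.

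The members, gene lists and marker lists were chosen with earlier results of these data known. Genes named beyond the members were list genes of at least 5 CPM in otic cells of a library, the 3 genes with the highest correlation of log2(CPM + 1) to a member over groups of cells, and the 5 with the largest ratio in cells with KCNE1 or BSND, of which DCC and KRT17 are given. CA12, under that CPM, is named as the 1 carbonic anhydrase that was lower. A result of the chloride list is not reported here. Alternatives changed the OC90 threshold, filters, doublet calls, depth, fold, CPM minimum, scaling and clusters.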

Additional observations from a re-analysis of the deposited data

Results flagged for a closer look

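For ATP6V0D2 and CA2 the ratio between the gels lay above 1 in some otic clusters and below 1 in others. The intervals lay on opposite sides of 1, but they cover counting error only and take each UMI as independent. With 1 library per gel they do not establish opposed effects of the gels, and the difference between clusters was not tested. ATP6V0D2 had a ratio of GelNB-CH over Matrigel of 1.61 (1.32 to 1.96) in cluster 9. It was 0.455 (0.403 to 0.512) in cluster 11 and 0.239 (0.158 to 0.354) in cluster 12. The cluster 9 direction depended on depth. Among its cells of up to 8000 UMIs the ATP6V0D2 level was lower with GelNB-CH, on 25 GelNB-CH and 10 Matrigel UMIs of the gene. In the deeper bands it was higher with GelNB-CH. A single Matrigel cell of cluster 11 held 57 of the 790 ATP6V0D2 UMIs there. CA2 had a ratio of 1.67 (1.31 to 2.12) in cluster 8, and of 0.495 (0.339 to 0.715) in cluster 3, 0.846 (0.795 to 0.900) in cluster 11 and 0.639 (0.553 to 0.738) in cluster 12. CA2 and ATP6V0D2 were among the genes the clusters were built on.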

How the results depend on the processing

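Over 25 settings, 134 of 152 counts stayed within 1.5 times their value. Many of these counts were 0 as reported, namely members lower in otic cells, cells under the strict rule and otic cells with FOXI1. Settings that only drop cells or UMIs cannot raise a count of cells from 0, so the total is no measure of stability. Of 287 single-gene ratios and medians, 272 kept their side of the 2-fold rule and, where called, their direction. The CA2 ratio of GelNB-CH over Matrigel, not called at 0.711, was 1.19 at 8000 to 16000 UMIs. The GelNB-CH over Matrigel ratio ranged over 2.43 to 4.41 for SLC26A4 and 6.92 to 16.6 for ATP13A5. The 1 member lower with GelNB-CH, ATP6V0D2, was no longer called (0 members) at OC90 of at least 1, in otic-named clusters whatever OC90, thinned, at 8000 to 16000 UMIs, at fold 3, with TMM, with the same make-up of otic clusters, without cluster 11, without cluster 7 and without cells over 50000 UMIs, and with no CPM minimum 2 members were lower. Its ratio was 1.47 at 8000 to 16000 UMIs, and its otic ratio in Matrigel was 0.814 in otic-named clusters, which put cluster 11 among the other cells. Members higher in Matrigel otic cells were then 1 in place of 2, and 5 with no CPM minimum. At a minimum of 20 CPM 2 members were higher in GelNB-CH otic cells and 1 was higher with GelNB-CH than with Matrigel. Cells combining all 3 kinds were 90 and 68 with chloride from SLC12A2. With at least 2 of FOXI1, ATP6V1B1 and ATP6V0D2 in place of FOXI1, 1 Matrigel otic cell was positive. The cause of these changes was not tested beyond the settings' own construction. No paired analysis was possible because each gel has 1 library and no replicate numbers. FOXI1, ATP6V1B1, KCNE1 and BSND had too few UMIs for a comparison, and why they were few was not tested.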

Other observations

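The stretch of chromosome 8 from CA13 to ATP6V0D2, chosen after the values of its genes were seen, held 7 genes over 5 CPM among 11 listed, and all 7 were higher in otic than in other cells of both libraries. The ratios, GelNB-CH before Matrigel, were 4.11 and 4.24 for CA13, 4.29 and 5.27 for CA1, 3.33 and 6.01 for CA3 and 9.94 and 13.0 for CA3-AS1. AC100801.1, annotated as a processed transcript, which lies 36.239 kb before ATP6V0D2 on the same strand, had 33.3 CPM in GelNB-CH otic cells against 1.43 CPM in the other cells, and 60.7 CPM in Matrigel otic cells against 0.843 CPM. It was also the gene most like ATP6V0D2 over the groups of cells. Whether reads of neighbouring genes were mixed was not tested.

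ATP13A4, which lies 23.233 kb from ATP13A5 on the same strand, had 19.8 CPM in GelNB-CH otic cells against 1.88 CPM in the other cells, and 6.00 CPM in Matrigel otic cells against 2.69 CPM.

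The 17 GelNB-CH and 30 Matrigel otic cells with a KCNE1 UMI had 1170.5 and 1224 CPM of DCC, a netrin receptor, against 48.3 and 107 CPM in otic cells without one. KRT17 had 326 and 283 CPM, against 80.4 and 47.2 CPM. DCC and KRT17 were picked for a large ratio between cells with and without a KCNE1 UMI. The size of these gaps is thus set by the choice and is no test. Both are leading genes of cluster 11, which held 6 and 12 of the KCNE1 UMIs. ANKRD1, SLC2A3 and AVPR1A, picked by the same rule, are not among the leading genes of that cluster. Cells with and without a KCNE1 UMI were not matched for depth.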
